A study of Mus musculus with 65 samples.

Results

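This report concerns 37 label-retaining hematopoietic stem cells of aged mice, divided by whether the transcript of Vwf was counted in the cell. The sides were chosen by the Vwf value itself: 16 of the 37 cells had a value above 0 and are called Vwf-detected, and 21 had a value of 0 and are called Vwf-undetected. The series holds 65 single cells in all, the other 28 being non-label-retaining. All came from bone marrow of SCL-tTAxH2B-GFP mice older than 20 months, double heterozygous for a tetracycline transactivator driven from SCL and a histone H2B-GFP reporter. Lineage-depleted cells were sorted one by one as LSK CD34-/low Flk2- CD48- CD150+, and GFP-positive cells were the label-retaining ones. Both sides of the comparison were therefore GFP positive and shared genotype, age and sort, as well as a night without growth factors at 3% oxygen before lysis. The labels number 4 biological repeats and do not say how many mice each stands for. They give no treatment to switch the reporter off. Vwf was left out of every total and test.

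Von Willebrand factor is a large glycoprotein of platelets and of the vessel wall that tethers platelets to injured vessels. Among hematopoietic stem cells, a subset that carries Vwf RNA is known for platelet-biased and myeloid-biased output, and this subset becomes more frequent with age. Itga2b and Itgb3 encode the chains of the fibrinogen receptor of platelets, and Clec1a encodes a C-type lectin-like receptor found on endothelium. A gene at 0 in a single cell can be silent, or its few RNA molecules can be lost before sequencing, so detection depends on how much of a cell's RNA was captured.

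The Vwf gene (gene identifier 22371) lies on chromosome 6 at 125552948 to 125686679 in GRCm38. The Vwf values that set the sides were very uneven. Repeat 1 had 8 detected cells of 9, repeat 2 had 0 of 9, repeat 3 had 4 of 10 and repeat 4 had 4 of 9. Repeat 2 therefore entered no comparison within repeats, and the lone undetected cell of repeat 1 stood against 8. Just inside the threshold, 1 cell held a Vwf value of 1 and 3 cells a value of 2, and just outside it all 21 others were at 0. In all, 5 of the 16 detected cells held fewer than 10 Vwf counts, while the highest cells, both of repeat 1, held 2058 and 1048. As CPM (a gene's count scaled to the cell's total of all genes but Vwf), Vwf ran from 0.305 to 1280. In the undetected cells, 3 counts would have stood for 0.767 to 107 CPM, with a median of 12.4 CPM. Of the detected cells, 10 had a Vwf level under the highest of these limits and 3 under the median, so a level of that size could not have been seen in every undetected cell.

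**Figure D1:**
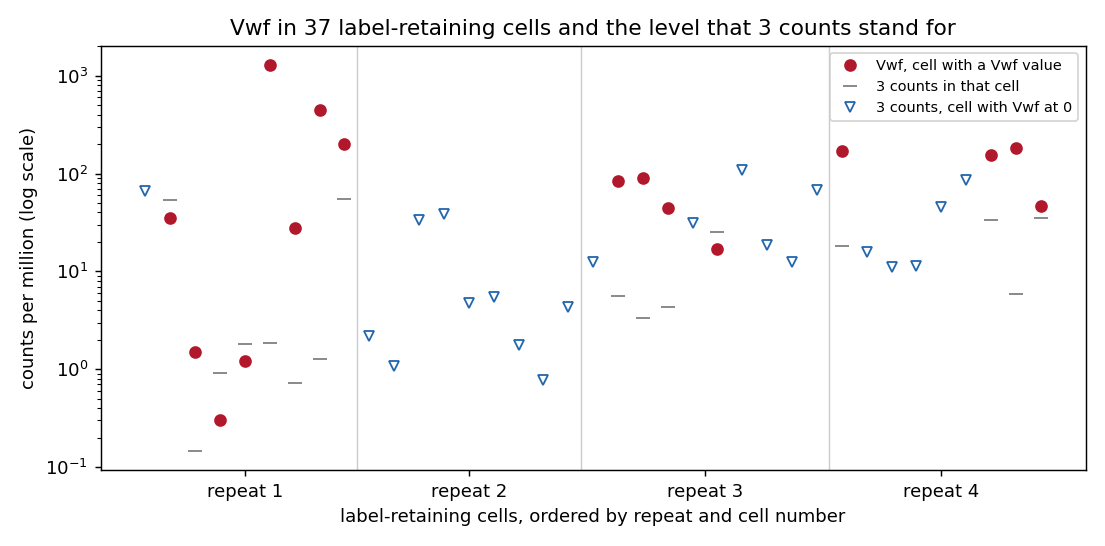
Vwf level of each of the 37 label-retaining cells in CPM on a log axis, ordered by repeat. Filled red circles are Vwf-detected cells, grey dashes the level that 3 counts stand for in the same cell, and open blue triangles that level in Vwf-undetected cells. The undetected triangles span 0.767 to 107 CPM, and repeat 2 holds triangles alone.

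The label of the sort was checked against the counts. Of the stem cell genes, the transcription factor gene Hlf and Myct1 each had a count in 31 of the 37 cells, Hoxb4 in 26 and Gata2 in 24. Slamf1, which encodes CD150, had a count in 0 of 37 cells. That limits the share of cells with a count to 8.11% (approximate 95% limit, 3 divided by the number of cells). It says nothing of expression, since CD150 was a gate. Flt3 (Flk2) and Cd48, both gated against, were also at 0 in every cell. Total counts ran from 27919 to 20515992 per cell (median 264878), over a table that covers 46.7% of the protein-coding genes of the reference annotation. All 65 libraries carry the same sequencing run in their labels. In cell 27 of repeat 3, a Vwf-undetected cell, 92.1% of the counts came from haemoglobin genes, and the next highest of the 37 cells had 3.46%. Cells 20, 21 and 22 of repeat 3, all Vwf-detected, resembled each other in many named genes. Mmrn1 was at 331, 321 and 240 CPM, Lat at 229, 190 and 150, and Dnm3 at 207, 244 and 143. Cell 24, the other detected cell there, had 0, 0 and 16.8 CPM. Lig1 differed, at 0, 4.5 and 8260 CPM in cells 20, 21 and 22. They are counted as separate cells throughout, and whether their profiles are independent was not tested.

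Vwf-detected cells had counts for many more genes. Before thinning, the detected cells of repeat 1 had between 2148 and 3198 genes (median 2526) and its undetected cell had 1493. In repeat 3 the detected cells had 1950 to 2739 genes (median 2625) and the undetected cells 505 to 1737 (median 721). In repeat 4 they had 2494 to 3546 (median 2963) and 472 to 1173 (median 812). The sides did not overlap in any of these 3 repeats. The undetected cells of repeat 2 had 792 to 2041 genes, the highest of them above the lowest detected cell elsewhere (1950).

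The gap was still there when every cell was thinned at random to 10000 counts. The detected cells of repeat 1 then had 825 to 1455 genes (median 1286) and the undetected cell 737. Repeat 3 gave 911 to 1412 genes (median 1286) against 183 to 815 (median 412), and repeat 4 gave 1468 to 1789 (median 1584) against 134 to 537 (median 250). Again no detected cell overlapped the undetected cells of its own repeat. Over repeats the detected side had 1357 ± 216 genes and the undetected side 501 ± 216 (SD, n = 3 repeats), a difference of 856 in the same direction in 3 of 3 repeats. The exact sign-flip permutation test over 3 repeats gave p = 0.25, two-sided, which is the smallest p that 3 repeats allow. Less RNA in a cell and RNA captured less well cannot be told apart from these counts.

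Total counts did not separate the sides as cleanly. In repeat 4 the log10 of the total ran from 4.93 to 5.71 in detected cells and from 4.54 to 5.43 in undetected cells, so the ranges overlapped. The mean log10 total was 5.65 ± 0.45 on the detected side and 4.92 ± 0.23 on the undetected side (SD, n = 3 repeats), higher in 3 of 3 repeats, with an exact sign-flip permutation p of 0.25.

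**Figure D2:**
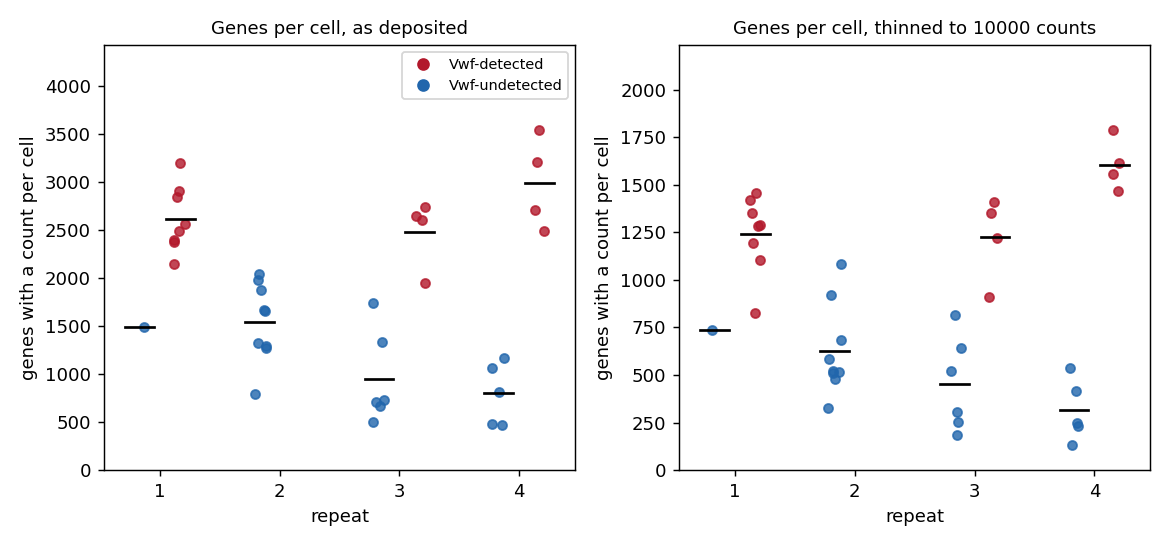
Genes with a count per label-retaining cell, by repeat, as deposited (left) and after thinning each cell to 10000 counts (right). Points are cells (red, Vwf-detected; blue, Vwf-undetected) and black bars the mean of each side. Within repeats 1, 3 and 4 every red point lies above every blue point in both panels.

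Most genes were found in more of the Vwf-detected cells. The share of thinned cells with a count was compared for 2035 genes by limma, with the repeat as a block and each share weighted by its number of cells. The median difference over all of them was 33.1 percentage points, and 702 genes (34.5%) were higher on the detected side in 3 of 3 repeats, against 11 (0.541%) lower in 3 of 3. After Benjamini-Hochberg adjustment, 174 genes (8.55%) passed 0.05 as higher and 1 gene (0.0491%) as lower. The standard error was 21.7 points for every gene, because limma pooled the spread of all genes. The calls need all 3 repeats: without repeat 1, 3 or 4 the count was 0 each time, and it was also 0 without the replicate block (0 of 2035, smallest adjusted p = 0.0868). Which genes passed also depended on the random draw of the thinning. Of the 174 higher calls, 103 were called again with another draw of 10000 counts, 88 when cells were thinned to 20000 counts and 68 in both, while the lower call was made in neither. Every difference at 10000 counts below stands beside this median of 33.1 points.

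A further comparison set the cells to the same number of genes: 400 genes were drawn from each cell in proportion to their counts, 100 times, and the share of draws with the gene was compared. The median difference over all genes was then 2.5 points. On the detected side 469 genes (23.0%) were higher in 3 of 3 repeats and 117 (5.75%) were lower. Equal numbers of genes fix the mean share over all genes with a count at 6.23% on both sides. Gains of some genes are therefore balanced by losses of others, whatever the cells hold. A cell with 472 genes kept most of them in each draw, while cells with 1950 or more mainly kept those with most counts. No gene passed the adjusted threshold in limma (smallest adjusted p = 0.0767), although 98 were above and 163 below 0 with an unadjusted p under 0.05. This comparison was added after the gap in genes per cell had been seen. Whether a gene's difference follows from the gap was not tested.

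Itga2b, the alpha chain of the platelet fibrinogen receptor (chromosome 11, 102453297 to 102469883), was almost absent from Vwf-undetected cells. As deposited it had a count in 10 of 16 detected cells (62.5%, exact 95% binomial interval 35.4 to 84.8%) and in 1 of 21 undetected cells (4.8%, 0.1 to 23.8%). The intervals cover counting error only, and PCR reads without molecular identifiers are not independent molecules. The 8 detected cells of repeat 1 ran from 0 to 435 CPM, with 4 at 0. Those of repeat 3 had 0, 20.2, 25.9 and 59.3 CPM and those of repeat 4 had 0, 21.4, 22.4 and 24.3 CPM. All 12 undetected cells of repeats 1, 3 and 4 were at 0, and 1 cell of repeat 2 had 1.2 CPM. A count in 0 of 12 allows a share of up to 25.0% (approximate 95% limit, 3 divided by the number of cells). After thinning, 3 detected cells and 0 undetected cells kept a count, too few for the test of shares. Its mean share at 400 genes per cell was 2.83% against 0%, higher in 3 of 3 repeats. The 12 undetected cells had no count to draw, so their 0% was fixed and no repeat could have been lower.

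Itgb3, the beta chain that pairs with it (chromosome 11, 104608000 to 104670476), was more widespread. It had a count in 16 of 16 detected cells and in 13 of 21 undetected cells. Detected cells of repeat 3 had 530, 3073, 5294 and 5794 CPM, and the undetected cells there ran from 0 to 931 CPM. In repeat 4 the detected cells had 158, 247, 358 and 788 CPM. The undetected cells there had 0, 0, 0, 10.5 and 57.6 CPM, so the sides did not overlap. The number of all genes per cell did not overlap in repeat 4 either, which bears on every contrast of that repeat below. The share of genes without overlap there was not counted. In repeat 1 the Itgb3 level of detected cells ran from 4.2 to 1898 CPM around the undetected cell at 131 CPM. The highest Itgb3 level of all, 13876 CPM, was in an undetected cell of repeat 2. After thinning the difference was 31.9 ± 21.7 points (SE; limma, adjusted p = 0.271), with 2 repeats higher and 1 lower. Another draw of 10000 counts gave 67.3 points (limma, adjusted p = 0.0288), and 20000 counts gave 33.9 points (limma, adjusted p = 0.241). At 400 genes per cell the difference was 37.5 points and higher in 3 of 3 repeats (limma, adjusted p = 0.331). Its summed level differed by 3.22 ± 2.44 log2 units (SE; edgeR, adjusted p = 0.463), and without the cells under 500 genes its thinned difference turned to -15.0 points.

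Clec1a (chromosome 6, 129426684 to 129452000) had a count in 13 of 16 detected cells and in 4 of 21 undetected cells. In repeat 3 the detected cells had 33.7, 181, 217 and 318 CPM, and 5 of the 6 undetected cells were at 0 with the other at 62.0 CPM. In repeat 4 the detected cells had 0, 11.8, 133 and 793 CPM, and 3 undetected cells at 0 stood beside 1 at 15.2 and 1 at 502 CPM. The undetected cell of repeat 1, at 175 CPM, lay above all 8 detected cells of that repeat (0 to 118 CPM). All 9 cells of repeat 2 were at 0. The thinned difference was 25.4 ± 21.7 points (SE; limma, adjusted p = 0.376) and at 400 genes per cell it was -9.9 points, so its direction turned. A count of all 3 genes together was found in 8 detected and 0 undetected cells, and 6 undetected cells but 0 detected cells had none of them.

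**Figure D3:**
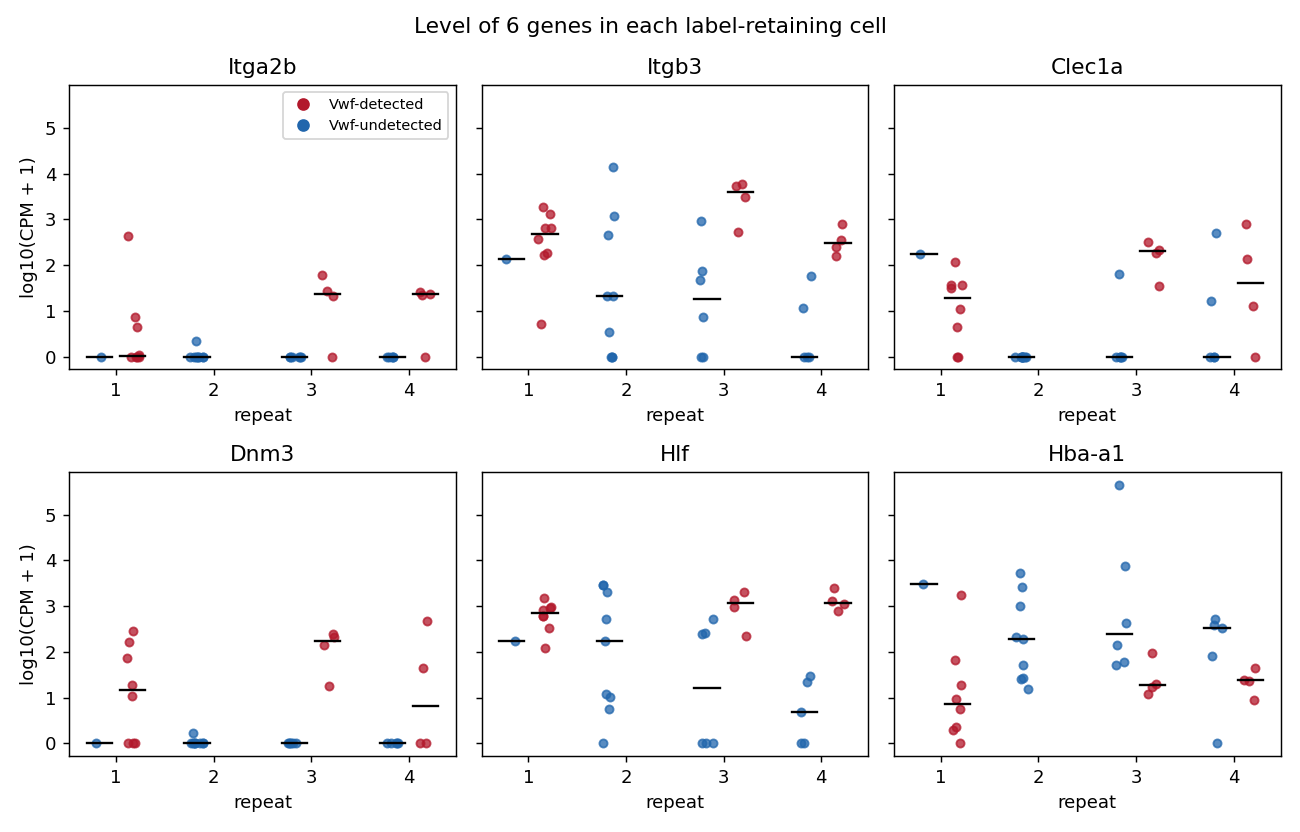
Level of Itga2b, Itgb3, Clec1a, Dnm3, Hlf and Hba-a1 in each label-retaining cell, as log10 of CPM plus 1, by repeat. Points are cells (red, Vwf-detected; blue, Vwf-undetected) and black bars are medians. Itga2b and Dnm3 are at 0 in all 12 undetected cells of repeats 1, 3 and 4, and Hba-a1 has the reverse order of medians.

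Of 59 megakaryocyte and platelet genes, 30 were in the table and 25 had a count in some label-retaining cell. Detected cells held counts for 9 to 18 of them (median 13.5) and undetected cells for 2 to 13 (median 8). In repeat 4 (13 to 18 against 2 to 8) the sides did not overlap, in repeat 3 they did (9 to 16 against 3 to 10), and in repeat 1 the undetected cell, with 13, was inside the detected range of 11 to 15. The number of all genes per cell did not overlap in any of these repeats, so the gap in repeat 4 was not particular to this list. After thinning, detected cells held 38.7% of the 25 and undetected cells 18.5%, beside 21.1% and 7.81% of all genes with a count. Of the 12 members tested, 3 were higher in 3 of 3 repeats and 0 were lower, beside 34.5% and 0.541% of all genes. None of them passed the adjusted threshold in limma. Their median difference was 46.0 points, beside 33.1 for all genes, and 6.6 points at 400 genes per cell, beside 2.5.

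Dnm3, a dynamin expressed in megakaryocytes, was nearly absent from undetected cells. It had a count in 11 of 16 detected cells and 1 of 21 undetected cells. Its level reached 287 CPM in repeat 1, 244 CPM in repeat 3 and 469 CPM in repeat 4 on the detected side, and all 12 undetected cells of these repeats were at 0. The thinned difference was 46.8 ± 21.7 points (SE; limma, adjusted p = 0.121), and with another draw it was 58.9 points and passed (limma, adjusted p = 0.0419). In the first draw Dnm3 entered the test through the detected side alone, with 6 and 0 thinned cells. At 400 genes per cell the difference of Dnm3 was 10.8 points, higher in 3 of 3 repeats. With the 12 undetected cells at 0 before the draw, no repeat could have been lower. Mmrn1, the alpha-granule protein multimerin, had a count in 9 and 5 cells and a thinned difference of 58.9 ± 21.7 points (SE; limma, adjusted p = 0.0577), or 45.6 points with another draw. Slc2a3, a glucose transporter of platelets, was found in 15 and 16 cells, and its thinned difference of 52.8 points became -3.9 at 400 genes per cell. Tbxas1, thromboxane synthase, had a count in 12 detected and 3 undetected cells, and in repeat 4 its detected cells ran from 134 to 879 CPM with the undetected cells at 0. Its highest level, 3373 CPM, was in an undetected cell of repeat 2.

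Other members of the list were found on both sides or in few cells. Cavin2, a caveolar coat gene also abundant in platelets, had a count in 5 detected cells, 4 of them in repeat 4. It had a count in 0 of 21 undetected cells (exact 95% binomial interval 0 to 16.1%). Plek, the main protein kinase C substrate of platelets, was in 16 and 16 cells, the tetraspanin Cd9 in 15 and 14, and the granule fusion gene Vamp8 in 15 and 13. Rap1b, a small GTPase of integrin activation, was in 10 and 11 cells and differed by 10.1 points after thinning. Nbeal2, needed for alpha-granules, had a count in 3 detected and 6 undetected cells. Of 14 markers of mature megakaryocytes or platelets, 7 were in the table and only Itga2b and the lipoxygenase gene Alox12 had counts. Together they took 0.0435% of the counts of a cell at most, and Gp1ba, Gp9, Gp6, Treml1 and Clec1b, receptors and membrane proteins of platelets, were at 0 in all 37 cells.

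The regulators listed for Vwf transcription were few. Of 22, 6 had a count and 2 were tested, of which 1 passed, beside 8.55% of all genes. Nfic, a nuclear factor I protein, had a count in 15 detected and 10 undetected cells. It was in 37.5, 75.0 and 100% of the detected cells of repeats 1, 3 and 4 after thinning, against 0, 16.7 and 0% of the undetected ones. Its thinned difference of 71.8 ± 21.7 points passed the threshold (SE; limma, adjusted p = 0.0307) and was 10.03 points at 400 genes per cell, higher in 3 of 3 repeats. Nfic also passed with another draw (82.7 points) and at 20000 counts (74.6). Gata2, a stem cell and megakaryocyte transcription factor, was higher in 3 of 3 repeats by 50.0 points (limma, adjusted p = 0.103), and passed at 20000 counts with 72.2 points (limma, adjusted p = 0.0345). In repeat 4 its level was 55.9 to 752 CPM in detected cells, with 4 undetected cells at 0 and the other at 5.3 CPM. In repeat 3 the highest Gata2 level, 1683 CPM, belonged to an undetected cell. Nfya, a subunit of the CCAAT-binding factor NF-Y, had a count in 9 detected and 3 undetected cells, and Nfil3, a bZIP repressor, in 4 and 6.

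Of 53 genes reported as higher in aged stem cells, 17 had a count and 6 were tested. Their median difference was 35.5 points, beside 33.1 for all genes. Of the 6, 1 passed, beside 8.55% of all genes. This was Tspan13, a tetraspanin, with 62.9 ± 21.7 points (SE; limma, adjusted p = 0.0484). It was in 62.5, 75.0 and 50.0% of detected cells in repeats 1, 3 and 4 after thinning and in 0% of undetected cells, yet 2 undetected cells of repeat 2 carried it and the difference at 400 genes per cell was 5.9 points. At 20000 counts Tspan13 did not pass (limma, adjusted p = 0.0536). As deposited Tspan13 had a count in 13 of 16 detected and 7 of 21 undetected cells. Its highest level, 15643 CPM, was in an undetected cell of repeat 2. Like Dnm3, it reached the filter of 6 thinned cells through the detected side alone. Nupr1, a stress-induced chromatin protein, was in 15 and 13 cells and differed by 41.9 points (limma, adjusted p = 0.156). Nupr1 at 400 genes per cell was higher in 3 of 3 repeats by 30.3 points. Cd63, a tetraspanin of granule membranes, was in 16 and 20 cells, Trim47, a ubiquitin ligase, in 16 and 13, and Phactr1, an actin regulator, in 9 and 10. Clec1a belongs to this list too.

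Stem cell identity genes lay near the median of all genes at 400 genes per cell. Of 47, 20 had a count and 11 were tested, with a median of 41.9 points at 10000 counts and 2.0 points at 400 genes, against 33.1 and 2.5 for all genes. Of the 11, 2 passed, Hlf and Hoxb4, both as higher, beside 8.55% of all genes. Hlf, a transcription factor that marks the most immature cells, had 764 to 2504 CPM in the detected cells of repeat 4, and 0 to 28.8 CPM in the undetected cells. In repeat 3 the ranges were 219 to 2073 CPM and 0 to 512 CPM. In repeat 2, without any Vwf-detected cell, Hlf reached 2874 CPM. Its thinned difference was 67.3 ± 21.7 points (SE; limma, adjusted p = 0.0372) with 2 repeats higher and 1 lower, and it was 31.1 points at 400 genes per cell. Hoxb4, a homeobox gene of stem cell expansion, differed by 64.5 points (limma, adjusted p = 0.0429) and by -17.4 points at 400 genes per cell. Hlf and Hoxb4 passed with another draw and not at 20000 counts (limma, adjusted p = 0.0762 and 0.0615). Myct1 was in 16 and 15 cells and differed by 41.9 points, or by 63.3 points with another draw, which passed (limma, adjusted p = 0.0328).

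The 8 largest thinned differences with 1 direction in 3 of 3 repeats lay between 83.5 and 90.7 points in this draw. Ndel1, a dynein regulator, had 90.7 points. Beside it stood the argonaute partner Tnrc6a and the chaperone Hspa4 at 88.7, the lipid phosphatase gene Inpp5d at 87.1, the transcription factor gene Tcf4 at 86.7, the microRNA-processing nuclease gene Dicer1 at 83.9, and the RNA-binding Serbp1 and the glycolytic enzyme gene Gpi1 at 83.5. Each had an adjusted p of 0.0202 (limma, SE 21.7 points), the smallest of the fit. As deposited these 8 genes had a count in 14 or more detected cells, and in 7 (Tnrc6a, Gpi1) to 16 (Serbp1) undetected cells. Differences of this size need a count in most detected cells. The detected side alone could therefore meet the filter of 6 thinned cells, so the filter favoured this direction. With another draw all 8 passed, at 57.7 (Dicer1) to 86.7 points (Tcf4). At 20000 counts Ndel1 (52.0 points, limma, adjusted p = 0.0849) and Serbp1 (54.0 points, 0.0762) did not pass. With 400 genes per cell the values spread out. Tnrc6a had 36.5 points, Tcf4 29.2, Inpp5d 25.6, Serbp1 24.5 and Gpi1 21.4, all higher in 3 of 3 repeats, while Ndel1 was at -0.5 and Dicer1 at 4.1. Tnrc6a had 15.1 to 3119 CPM in every detected cell (median 637) and 0 to 335 CPM in undetected cells (median 0).

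Few genes were found more often in Vwf-undetected cells. Gna11, the G protein alpha-11 gene, was the 1 gene that passed as lower, by -64.1 ± 21.7 points (SE; limma, adjusted p = 0.0449). After thinning it was in 25.0, 50.0 and 25.0% of detected cells in repeats 1, 3 and 4, and in 100% of undetected cells each time. The call was lost with another draw (-46.8 points; limma, adjusted p = 0.0968) and at 20000 counts (-33.1 points, 0.252), and without thinning the difference was -2.0 points. As deposited it was in 15 of 16 and 20 of 21 cells, at a median of 29.7 and 117 CPM. Its counts were 0 to 74 in detected and 0 to 110 in undetected cells. Cell 3 held 16 of 20515992 counts and cell 28 held 24 of 44530. CPM and thinned share of such counts depend on the cell's total, whose part in the difference was not tested. The levels of Gna11 overlapped in every repeat. They were 0 to 529 around 175 CPM in repeat 1 and 35.8 to 623 against 66.0 to 539 CPM in repeat 3. In repeat 4 they were 22.4 to 243 against 117 to 864 CPM. Prr15, Ptchd1, Zfp329, Gas7 and Tmem91 had the same form, with counts in 13 or more detected cells and 20 or more undetected cells, a lower share after thinning in 3 of 3 repeats by -36.3 to -56.9 points, and none passing the threshold. With another draw these differences were -21.8 to -52.4 points, and none passed. At 400 genes per cell they differed by -41.7 to -63.4 points.

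Haemoglobin genes had the same direction. Hba-a1, an alpha-globin gene whose reads can be shared with its near-identical copy Hba-a2, had a count in 15 of 16 and 20 of 21 cells. In repeat 4 the detected cells had 7.8, 22.4, 23.5 and 42.4 CPM, and the undetected cells 0, 81.9, 327, 395 and 518 CPM. In repeat 3 the detected cells ran from 11.1 to 92.6 CPM and the undetected cells from 51.7 to 452365 CPM. In repeat 1, 7 of 8 detected cells were at or under 65.9 CPM and 1 was at 1717, below the undetected cell at 3023 CPM. Medians were 17.0 CPM on the detected side and 213 CPM on the undetected side. Its thinned difference of -44.4 points and that of Hbb-bs, a beta-globin gene, of -47.2 points were lower in 3 of 3 repeats and did not pass (limma, adjusted p = 0.134 and 0.119). At 400 genes per cell they were -66.7 and -65.6 points (limma, adjusted p = 0.0767 and 0.112). Without thinning the direction turned for Hba-a1, at 6.05 points.

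The summed share of haemoglobin genes was lower in detected cells in 3 of 3 repeats. The means over repeats were 0.037 ± 0.05% and 5.62 ± 8.56% (SD, n = 3), with an exact sign-flip permutation p of 0.25. Without cell 27 the undetected mean was 0.511 ± 0.322%. Of 12 erythroid markers 5 had counts, of which Alas2, the first enzyme of haem synthesis in red cell precursors, was in 1 detected and 3 undetected cells, and Slc4a1, the band 3 anion exchanger, in 0 and 1. All 5 erythroid markers summed to 0 to 0.567% of counts in detected cells and 0 to 92.8% in undetected cells. Their part in the differences was not tested.

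**Figure D4:**
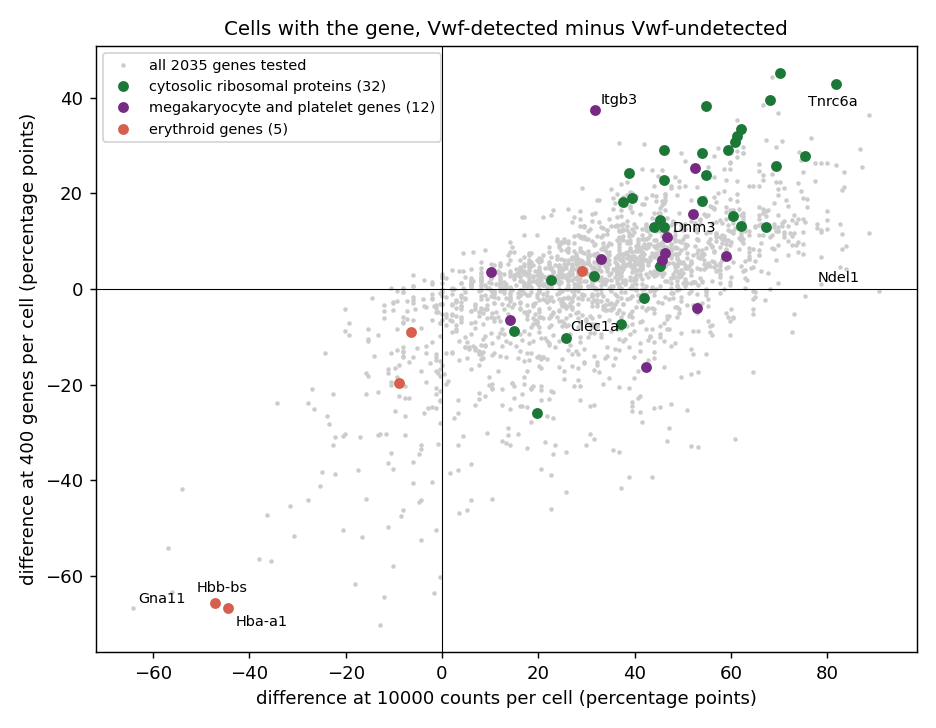
Difference in the percent of cells with each of 2035 genes, Vwf-detected minus Vwf-undetected, at 10000 counts per cell (x axis) and at 400 genes per cell (y axis), in percentage points. Grey points are all genes tested, with 3 gene lists in colour. Most genes lie right of 0 on the x axis (median 33.1) and close to 0 on the y axis (median 2.5), with Hba-a1, Hbb-bs and Gna11 at the lower left.

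Cytosolic ribosomal protein genes were the list furthest above the median of all genes at 400 genes per cell. All 42 in the table had a count and 32 were tested. After thinning, detected cells held 96.4 ± 0.6% of these genes and undetected cells 53.2 ± 6.98% (SD, n = 3 repeats). Beside them stood 21.1 ± 3.36% and 7.81 ± 3.36% of all genes with a count, so a gap between the sides was not particular to this list. The detected shares were 97.0, 96.4 and 95.8% in repeats 1, 3 and 4, and the undetected shares 59.5, 54.4 and 45.7%. Of the 32, 13 were higher in 3 of 3 repeats, beside 34.5% of all genes, and 8 passed the threshold, beside 8.55%. Among the 8 were Rps13 (81.9 points, limma, adjusted p = 0.0205), Rps27a (75.4) and Rpl21 (70.2), and of these 3 Rps13 and Rpl21 also passed with another draw and at 20000 counts, Rps27a with another draw. At 400 genes per cell the median was 18.8 points beside 2.5 for all genes, with 13 members higher and 1 lower in 3 of 3 repeats, beside 23.0% and 5.75% of all genes. Rpl21 at 45.0, Rps13 at 42.8 and Rplp2 at 39.6 points were the highest. The ribosomal genes and the called members of other lists were named after their values were seen. As a share of all counts the list did not separate the sides: 5.96, 12.0 and 9.7% in detected cells of repeats 1, 3 and 4, against 7.01, 7.82 and 11.6%.

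Of 11 glycolysis genes tested, 4 passed (Gpi1, Hk2, Aldoa and Gapdh), beside 8.55% of all genes, and the median was 52.8 points, beside 33.1. Gpi1 was the 1 of these 4 that passed both with another draw and at 20000 counts. That median was 4.6 points at 400 genes per cell, beside 2.5 for all genes. Aldoa, an aldolase gene, was in 16 of 16 thinned detected cells and 11 of 21 undetected cells. Of 34 oxidative phosphorylation genes tested 5 passed, beside 8.55% of all genes, with a median of 34.1 points, near the 33.1 of all genes, and of 7.8 at 400 genes. Cox7c, a subunit of cytochrome c oxidase, had a thinned difference of 65.7 points (limma, adjusted p = 0.0394) and 24.7 points at 400 genes, higher in 3 of 3 repeats, and passed with another draw (80.6 points) and at 20000 counts (74.6).

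In the lists of niche and signalling genes, calls stood beside 8.55% of all genes. Of 8 niche adhesion and cytokine receptor genes tested, Cxcr4, the receptor for the chemokine Cxcl12, passed with 62.1 ± 21.7 points (SE; limma, adjusted p = 0.0487). It was in 16 of 16 thinned detected cells and 13 of 21 undetected cells, 9 of those in repeat 2. The difference of Cxcr4 was 32.6 points at 400 genes per cell, higher in 3 of 3 repeats, and Cxcr4 did not pass at 20000 counts (limma, adjusted p = 0.0743). Of 22 actin and integrin signalling genes 1 passed, and their median was 39.1 points, or 3.3 at 400 genes. Of 9 granule and exocytosis genes Stxbp5, a syntaxin-binding regulator of secretion, passed with 64.5 points, did not pass with another draw (limma, adjusted p = 0.0585) and was at -2.2 at 400 genes. Immediate early genes gave 1 call of 6, the stress sensor gene Gadd45a at 73.0 points, which did not pass with another draw (limma, adjusted p = 0.0518). Interferon response genes gave 0 of 10 in limma, with a median of 42.3 points.

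Cell cycle and lineage genes were sparse. Of 33 S phase genes 7 had a count and 3 were tested, and of 33 G2 and M phase genes 7 had a count and 2 were tested. Birc5, the mitotic survivin gene, had a count in 10 detected and 6 undetected cells, at medians of 1.1 and 0 CPM. It was in 7 detected and 0 undetected cells after thinning, so that it entered the test through the detected side alone. Its difference of 73.0 points in that draw was 2.0 points in another. Quiescence genes had a median of 29.4 points over 6 tested members, under that of all genes. Of these 6, 1 passed, beside 8.55% of all genes. It was Smad7, an inhibitor of TGF-beta signalling (71.8 points), which did not pass with another draw (limma, adjusted p = 0.0585). Lymphoid priming genes had 1 tested member, Foxp1, at 48.8 points, and the 3 tested myeloid priming genes had a median of 8.9 points. Of the erythroid genes, 5 were tested, with a median of -8.9 points and -19.6 at 400 genes per cell.

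**Figure D5:**
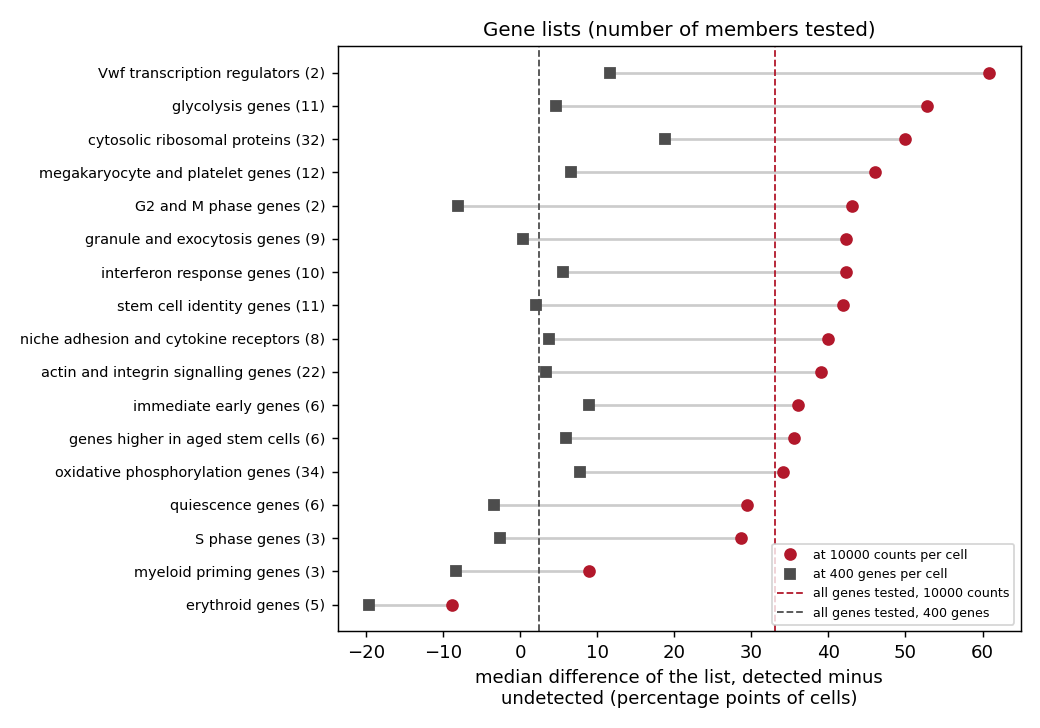
Median difference of each gene list in the percent of cells, Vwf-detected minus Vwf-undetected, in percentage points, with the number of members tested in parentheses. Red circles are at 10000 counts per cell and grey squares at 400 genes per cell, and the dashed lines are the medians of all genes tested (33.1 and 2.5). Erythroid genes lie lowest on both scales, and ribosomal protein genes lie furthest right among the squares.

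Markers of other cells were few on both sides. Of the endothelial list 6 of 23 had a count, led by Pecam1, an adhesion molecule that stem cells express too, in 15 detected and 5 undetected cells, and Stab2, a scavenger receptor of sinusoids, in 6 and 1. Endothelial markers summed to 0 to 0.132% of counts in detected cells and 0 to 0.057% in undetected cells. Sox17, an endothelial transcription factor gene, was at 0 in all 37 cells. B cell markers had counts in 4 detected and 9 undetected cells, with Cd79a, a chain of the B cell receptor, in 2 and 6. They took up to 4.59% of the counts of 1 undetected cell, while the defining genes Ighm, Igkc and Ebf1 were at 0 throughout. Neutrophil markers were in 1 detected and 2 undetected cells, with Mpo and Elane at 0, and monocyte or macrophage markers in 7 and 8, with Csf1r and Adgre1 at 0. No mast cell or basophil marker had a count, and markers of T and NK cells were in 2 detected and 0 undetected cells. Xcr1, a chemokine receptor listed for dendritic cells, was in 13 and 10 cells with Itgax at 0, and Col1a2, a stromal collagen gene, in 8 and 9 with Col1a1 and Cxcl12 at 0. The part of these genes in the comparison was not tested.

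Levels were compared by edgeR's quasi-likelihood test for 3345 genes, on sums of the counts of the cells in a repeat on 1 side. No gene passed, in either direction (0.00% higher, 0.00% lower; smallest adjusted p = 0.309), although 520 genes were above and 14 below 0 with an unadjusted p under 0.05. DESeq2 called 27 genes on the same sums, all lower, and limma on the mean log2(CPM + 1) of cells called 969 higher and 2 lower. The genes with the smallest p and the same sign in 3 of 3 repeats were Ppp3cb, a calcineurin subunit gene, in 10 detected and 3 undetected cells, Hmgxb3 in 10 and 2, Asnsd1 in 9 and 0, Zfp646 in 11 and 1, and Tial1, an RNA-binding protein gene, in 14 and 3. On the lower side were Mylip, a ubiquitin ligase gene, in 5 and 10 cells, Trim72 in 2 and 6, Lancl2 in 2 and 8, Gna11, and Pigr, the polymeric immunoglobulin receptor gene, in 12 and 13. All of these had an adjusted p of 0.309 to 0.325 in edgeR. The 5 higher genes reached the filter of at least 8 cells through the detected side alone. Mylip and Lancl2 reached it through the undetected side alone, so the filter favoured these directions.

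The non-label-retaining cells, which the choice of sides did not use, were split in the same way. Vwf was above 0 in 8 of 28, with 3 in repeat 1, 0 in repeat 2, 1 in repeat 3 and 4 in repeat 4. Of those with enough counts for thinning, 7 were detected and 17 undetected, with a mean of 761 and 425 genes after thinning. The mean of the detected side was higher in 3 of 3 repeats, but cells overlapped in repeats 3 and 4. In repeat 3 the 1 detected cell had 407 genes and the undetected cells 166 to 461. In repeat 4 the ranges were 229 to 624 and 165 to 279. The highest Vwf level of all 65 cells, 3905 CPM, was in the cell with 229 genes. Itga2b had a count in 2 of 8 detected and 0 of 20 undetected cells, Itgb3 in 4 and 5, and Clec1a in 3 and 2. Dnm3 did not follow, with 0 and 2 cells. Hbb-bs was lower on the detected side in 3 of 3 repeats, by -53.3 points on average after thinning, and Hba-a1 differed by -11.1 points with 1 repeat higher. These are descriptions over few cells, with no test.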

How the data were processed

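Single-cell libraries were made with SMART-Seq v4 cDNA and Nextera XT, per the labels' protocols. The authors deposited 1 table of estimated counts per gene and cell, on mm10 and with DESeq, per the submitters' processing notes. The aligner, the counter and the annotation were not given in the sources used here. Totals differ up to 20515992 per cell, so the deposited estimated counts were read as unscaled and rounded. Of 18036 gene identifiers 16216 matched RefSeq (GRCm38.p6), and the 1820 others held 0.13% of counts.

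Repeats, not cells, were the unit, and repeat 2, with no Vwf-detected cell, could not be compared. Shares of cells were tested after thinning to 10000 counts (genes in 6 to 31 of the 37 thinned cells; limma 3.58.1) and sums by edgeR 4.0.16 (TMM, genes in at least 8 cells), in R 4.3.3, with the repeat as a block since the numbers mark shared biological repeats. DESeq2 1.42.0 was an alternative. Exact sign-flip permutation tests over repeats served single values, and fits were tested on simulated data. Named genes were Itga2b, Itgb3, Clec1a, members of the platelet, aged stem cell and Vwf regulator lists with counts in 5 or more cells, the 8 largest differences in share and 5 smallest p by level in each direction with 1 sign in every repeat, called genes (up to 10 a direction), and up to 4 members of other lists by cells with a count. The gene lists were written from general knowledge, and members and lists were chosen with earlier results of these data known.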

Additional observations from a re-analysis of the deposited data

Results flagged for a closer look

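Within each repeat and side of 4 or more cells, 24 groups of values were examined for a cell that stood apart from the others, which chance does in about 1 of 20 groups. In total count, cell 3 (repeat 1, Vwf-detected) stood apart with 20515992. In haemoglobin share the cells standing apart were cell 27 with 92.06% (repeat 3, Vwf-undetected), cell 30 with 3.464% (repeat 4, Vwf-undetected), cell 13 with 1.901% (repeat 2, Vwf-undetected), cell 9 with 0.567% (repeat 1, Vwf-detected), cell 36 with 0.028% (repeat 4, Vwf-detected) and cell 24 with 0.019% (repeat 3, Vwf-detected). In ribosomal protein share they were cell 13 with 24.157%, cell 9 with 17.134% and cell 27 with 0.596%. Cells 9, 13 and 27 thus appear in both shares.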

How the results depend on the processing

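The repeat 2 cells have no counterpart with Vwf, so leaving out repeat 2 leaves every within-repeat value as it is, and 3 repeats limit all tests. The 0 calls by level became 27, all lower, with DESeq2 and 971 with limma on mean log2(CPM + 1), and 0 to 7 when a repeat was left out. Another scaling moved the median log2 difference of all genes from 2.54 (TMM) to 1.28 (RLE) or 3.61 (total counts). The 175 calls by share of cells became 0 without the replicate block, which is the pairing of both sides within a repeat. They also became 0 with repeats weighted equally, with Vwf required after thinning, without cells under 500 genes and at 400 genes per cell, and 0 to 0 when a repeat was left out. They were 995 without thinning, 110 with at least 2 counts, and 39 with no replicate block and repeat 2 included. That last fit gave a difference of 1500 genes before thinning and 824 after it (exact permutation p = 0.0286 for both). Other settings for the calls gave 135 to 256. Among 41 named genes followed through every setting, differences in points turned direction at 400 genes per cell for Clec1a (-9.89), Slc2a3 (-3.93), Nbeal2 (-6.39), Stxbp2 (-16.35), Ndel1 (-0.49) and Pigr (-44.10). Without cells under 500 genes they turned for Itgb3 (-15.02), Nbeal2 (-5.88), Cd63 (-5.88) and Pigr (-37.78). Requiring Vwf after thinning turned Cd9 (-1.36) and Tmem91 (3.40), and no thinning turned Prr15 (8.06), Zfp329 (4.03) and Hba-a1 (6.05). Pigr also turned at 20000 counts (-37.10), with another seed (-12.90), with Vwf of at least 10 (-4.42) and, with a repeat left out, ran from -30.41 to 42.86. Among other called genes, Hoxb4 (-17.4), Birc5 (-5.3) and Stxbp5 (-2.2) turned at 400 genes. Of the 41, 23 kept direction and side of the threshold at 400 genes per cell and 26 without thinning. The causes were not tested. The settings of 400 genes, of 500 genes and with repeat 2 were chosen after seeing the data.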
